A study of Ambystoma mexicanum with 6 samples.

Results

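Accessible chromatin was compared between 4C cells of the regenerating limb and 4C cells of the uninjured limb of the axolotl (Ambystoma mexicanum). The comparison took 4 of the 6 libraries of the series, chosen by their labels, and joined their peaks into 574 sites, against 3529 sites when all 6 libraries were joined. The blastema group (2 libraries) came from wild type animals, from the blastema and the wound epidermis that covers it. The intact group (2 libraries) came from wild type limb tissue at homeostasis. All 4 libraries held 10000 cells sorted as alive by dye staining and as 4C by DNA content, and were read as pairs of 100 bp. The 2 other libraries, from limb tissue of systemically activated animals 14 days after amputation, were used only to place sites. No day is stated for the blastema. It is also not stated whether cells of several animals were pooled or whether replicates came from separate animals, so p-values measure only the spread between these samples. Source tissues differ between the groups, since wound epidermis was part of the blastema samples and the intact label names limb tissue only.

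The blastema is the mound of progenitor cells that forms at the stump after amputation and rebuilds the missing parts of the limb. A specialised wound epidermis covers it and supplies signals for its growth. A DNA content of 4C marks cells that have copied their genome and not yet divided. In ATAC-seq the transposase Tn5 inserts into DNA that nucleosomes leave free, so a peak marks an open promoter, enhancer or other regulatory element. In bulk libraries, a site open in fewer of the cells and a site less open in each cell cannot be told apart. The same holds for a change in the mix of cell types. The build of the peak coordinates is not given in the sources used here, so no gene was assigned to any site, and the tissue labels could not be checked against marker genes.

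The blastema lists held 248 and 258 peaks, and the intact lists 305 and 483. The lists hold no read numbers, so the depth behind them is unknown. Mean log2 peak number differed by −0.60 (exact permutation test of the group labels, 2-sided, p = 0.333, the smallest value this design can give, so no single value can reach 0.05). Without intact 2 the difference was −0.27, and without intact 1 it was −0.93. Positions below are 1-based within the named segment of a chromosome arm, and peak areas and widths are the authors' own values.

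The strongest peaks of every library overlapped a peak in each of the others. Every one of the 50 strongest peaks of each list had a partner in each of the other 3 lists. For ranks 51 to 100 the share with a partner was 98% or 100% in every pair of lists. The sets of the 50 strongest were not identical, with 40 to 45 in common between a blastema and an intact list, 45 between the blastema lists and 44 between the intact lists. The lists parted lower down. Of the peaks of blastema 1 at ranks 201 to 248, 43.8% had a partner in blastema 2, 52.1% in intact 1 and 64.6% in intact 2, the longest list. For blastema 2 the shares at these ranks were 54.2% in blastema 1, 54.2% in intact 1 and 60.4% in intact 2. Once each list was limited to its 248 strongest peaks, the shares for blastema 1 were 37.5% in blastema 2 and 43.8% in each intact list. For blastema 2 they were 54.2% in blastema 1, 45.8% in intact 1 and 43.8% in intact 2. In equal lists the share in the other blastema list was thus the lowest of the 3 for blastema 1 and the highest of the 3 for blastema 2, differences that were not tested.

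Of the 574 sites, 167 (29.1%) had a peak in all 4 libraries. Shared sites were wide, at a median of 622 bp, while the other sites had 131 bp. The width of a site spans all peaks joined in it, so sites with peaks in more lists tend to be wider by construction. Of the other sites, 310 had a peak in 1 library only. In blastema 1, 73.4% of peaks stood at shared sites (95% CI by Wilson's method, 67.6 to 78.5), and in blastema 2 it was 72.5% (66.7 to 77.6). For intact 1 the share was 61.3% (55.7 to 66.6) and for intact 2 it was 37.3% (33.1 to 41.7). These intervals cover counting error only. A shared site needs a peak in every list, so the number of peaks there was bound to be similar. It was 182 and 187 in blastema and 187 and 180 in intact, so the shares mainly reflect the lengths of the lists. By area the shares were higher, with 98.2% and 97.1% of all peak area at shared sites in blastema and 96.0% and 94.5% in intact. Another 225 sites had a peak in intact 2 alone, with a median width of 100 bp, and 51 in intact 1 alone. Blastema 1 alone held 13 sites and blastema 2 alone 21.

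Each shared site was ranked within its library by summed peak area, as a percentile of the 167 sites from 0 (weakest) to 100 (strongest). Ranks over the same sites are of equal length in every library, which areas are not. Across sites, which are not independent, Spearman's rho of area was 0.944 between the blastema libraries and 0.954 between the intact libraries. Between groups it was 0.873 to 0.925. The median gap in rank between libraries was 3.59 percentile points between blastema replicates and 4.79 between intact replicates, and 5.39 to 8.98 between groups. Every pair between groups thus had a lower rho and a larger median gap than either pair of replicates, a description with no test.

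By group, 54 sites (32.3%) ranked higher in both blastema libraries than in both intact libraries, and 44 (26.3%) ranked lower in both. At the other 69 sites the groups overlapped. None of the 167 sites passed an adjusted p of 0.05 (limma on normal scores of the ranks, Benjamini-Hochberg, 0% called, lowest adjusted p 0.0742), and 35 (21%) had an unadjusted p under 0.05, 17 of them higher and 18 lower in blastema. Without blastema 2 the unadjusted number was 17 of 181 shared sites. The median absolute difference of the group means was 6.59 percentile points and the largest 32.0. At 82 sites the difference exceeded the gap between both pairs of replicates. Differences between groups were small at the top of the list, and so were those between replicates. In the upper tercile by rank (56 sites, median width 1250 bp) the median absolute difference was 3.14 points and 2 sites differed by more than 10. In the middle tercile it was 9.73 points with 27 such sites, and in the lower tercile 8.08 points with 24. The median gap between replicates was 2.10 points in blastema and 1.80 in intact in the upper tercile. It was 6.29 and 5.99 in the middle tercile, and 4.79 and 6.59 in the lower. Percentiles are bounded at both ends of the list, and the cause of the smaller differences at the top was not tested.

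**Figure D1:**
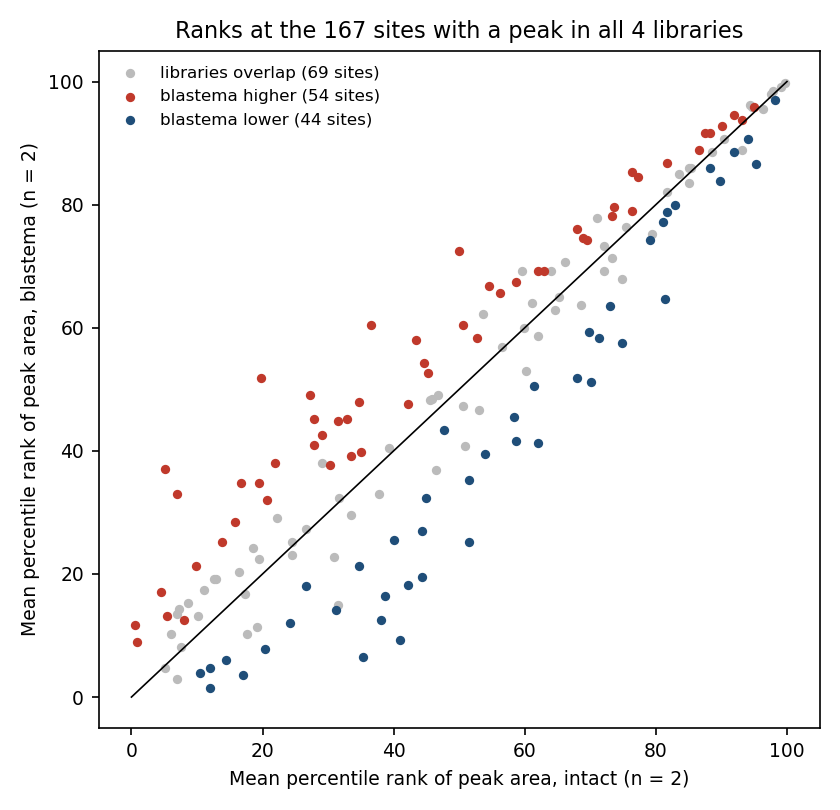
Mean percentile rank of peak area at the 167 shared sites in blastema (vertical axis, n = 2) and intact libraries (horizontal axis, n = 2), with the line of equal rank. Red points (54) ranked higher in both blastema libraries, blue points (44) lower in both and grey points (69) overlapped. The spread around the line narrows at the strongest sites, where the gaps between replicates were also smaller.

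The 5 strongest shared sites were picked by mean rank over all 4 libraries, so a high rank in both groups follows from the choice. At the top stood a site of arm 5q, segment 0, spanning 57768610 to 57773666, at 99.7 in each of the 4 libraries. Its peak was 5049 and 5057 bp wide in the blastema libraries, against 5017 and 5035 bp in the intact libraries. Next came a site of 4174 bp on arm 3p, segment 1, from 259876344 to 259880517, at 99.1 in each library. A second site on 3p, from 259791226 to 259794176, ranked at 97.9 in both blastema libraries, against 97.3 and 97.9 in the intact libraries. On 5q, segment 0, a site from 58675168 to 58679188 ranked at 98.5 in both blastema libraries and at 98.5 and 97.3 in the intact libraries. The site on arm 2p, segment 0, from 116659293 to 116662876 was the one of the 5 whose groups did not overlap, at 97.3 and 96.7 in blastema against 97.9 and 98.5 in intact. It was split into 2 and 3 peaks in the blastema lists and was a single peak in both intact lists.

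Sites that ranked highest in blastema relative to intact stood at 32.6 to 72.8 in the blastema libraries, none of them among the strongest. On arm 2p, segment 2, a site from 260280157 to 260280503 ranked at 36.2 and 38.0 in the blastema libraries and at 0.90 and 9.28 in the intact libraries. On arm 6q, segment 0, the site from 178744246 to 178744927 ranked at 50.6 and 53.0 in blastema and at 21.3 and 18.3 in intact. Both differed by 32.0 points, more than the gap between replicates (limma adjusted p = 0.210 and 0.0915). They had been picked for large differences among sites whose groups did not overlap, so their separation is no test. A 13q site from 20785959 to 20786434 stood at 32.6 and 33.2 in blastema, against 12.3 and 1.50 in intact. The remaining named sites were on 5q. The site from 20426970 to 20427870 in segment 0 ranked at 59.0 and 62.0 in blastema and at 39.8 and 33.2 in intact. In segment 1, the site from 381995813 to 381997317 ranked at 72.2 and 72.8 in blastema and at 55.4 and 44.6 in intact. At each of these 5 sites the blastema replicates lay within 3 points of each other, closer than the intact replicates.

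Of the sites that ranked lowest in blastema relative to intact, the one with the widest difference lay on arm 4p, segment 0, from 386234093 to 386234337. It ranked at 8.68 and 9.88 in the blastema libraries and at 42.2 and 39.8 in the intact libraries, a difference of −31.7 points (limma adjusted p = 0.0742, the lowest of all sites). The 5p site in segment 1 from 250835253 to 250835604 stood at 7.49 and 5.69 in blastema, against 28.4 and 42.2 in intact. Arm 6q, segment 1, held 2 such sites less than 5 kb apart. The first, from 307637337 to 307637592, ranked at 25.4 and 13.5 in blastema and at 45.2 and 43.4 in intact. The second, from 307641171 to 307641448, ranked at 23.7 and 26.6 in blastema and at 51.2 and 51.8 in intact (adjusted p = 0.0985). An 11p site from 304390795 to 304391067 completed the set, with 18.9 and 6.29 in blastema and 39.2 and 36.8 in intact. All 5 were narrow, at 245 to 352 bp, whereas the sites that ranked highest in blastema spanned 347 to 1505 bp.

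**Figure D2:**
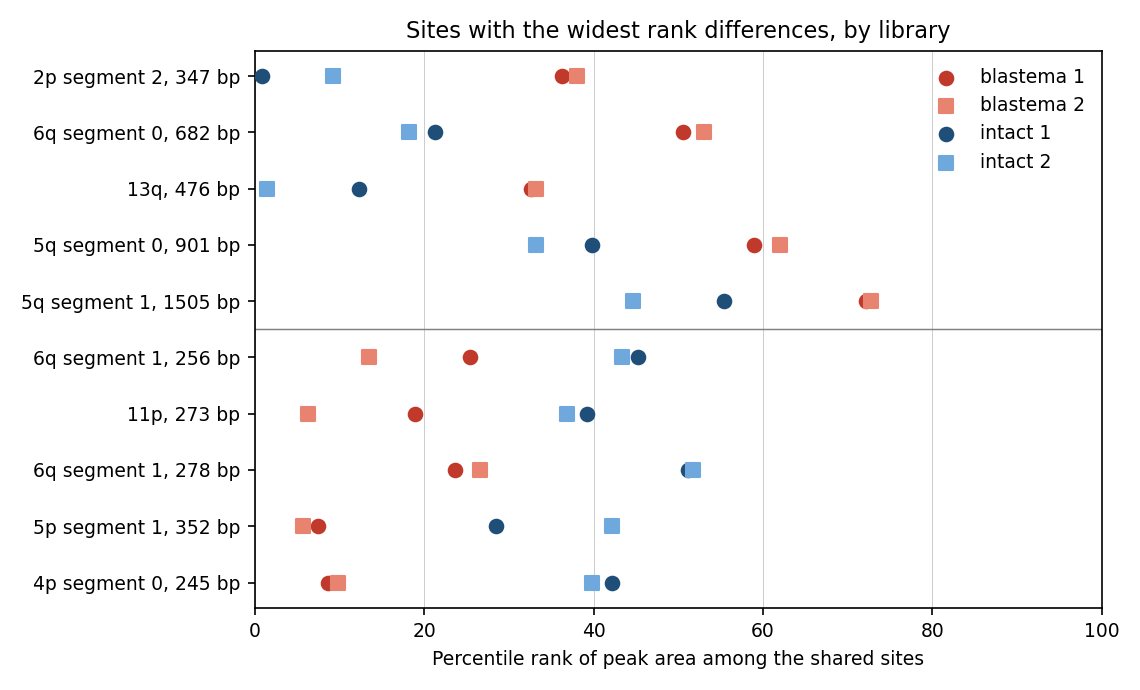
Percentile rank of peak area (horizontal axis) in each of the 4 libraries at 5 shared sites in each direction, ordered from highest to lowest difference. They have the largest rank differences among sites whose groups did not overlap. By this choice both blastema libraries (red) lie to the right of both intact libraries (blue) above the grey line, and to the left below it.

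The direction of the rank difference was compared between neighbouring sites. Shared sites no more than 20 kb apart were grouped, a distance chosen after the ranks had been seen, which placed 96 of the 167 sites in 35 groups of at least 2 sites. In 25 of these groups the rank difference had the same sign at every site, positive in 13 and negative in 12. Only 16 of the 35 groups had more than 2 sites. The rest were pairs, which can easily share a sign without any link between neighbours. The number of same-sign groups to be expected without such a link was not computed, so whether 25 is an excess is unknown. The rank of a site and that of its neighbour share the same stretch of DNA and are not independent measurements, so these counts are a description.

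The group with most sites lay on 5q, segment 0, where 11 shared sites stood between 58602430 and 58687620, a span of 85.2 kb. All 11 had a higher mean rank in blastema, and at 8 of them the groups did not overlap. Their mean rank was 58.3 and 60.8 in the blastema libraries and 51.8 and 51.4 in the intact libraries. Differences ran from 0.60 points at the strongest of them to 18.0 points at the site from 58673293 to 58673934. That site ranked at 27.2 and 42.2 in blastema and at 25.4 and 8.08 in intact, where intact 1 lay close to blastema 1. The site from 58652968 to 58653496 separated the groups more clearly, at 34.4 and 41.6 in blastema against 23.7 and 20.1 in intact. None passed the adjusted threshold (limma, lowest adjusted p 0.183), and 4 had an unadjusted p under 0.05. Without intact 1, when 12 shared sites lay there, 10 were higher in blastema and 2 lower.

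On 4p, segment 0, 3 shared sites between 386234093 and 386238858 all ranked lower in blastema. Their mean rank was 33.2 and 23.5 in blastema and 53.0 and 46.6 in intact. Between them, from 386235277 to 386235488, lay a further site with a peak in both intact libraries and in neither blastema library, 940 bp from the nearest shared site. Its peak was 212 and 195 bp wide in the intact libraries. At this stretch of 4.77 kb the full intact lists thus had 4 sites and the blastema lists 3. The further site ranked 165 and 335 in the intact lists, so intact 2 lost it once lists were limited to 248 peaks.

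Arm 6q, segment 1, held 4 shared sites between 307637337 and 307646009, all lower in blastema, with mean ranks of 51.3 and 45.5 in blastema and 66.6 and 63.9 in intact. The strongest of the 4, from 307644960 to 307646009, differed by only −3.29 points, at 90.1 and 91.3 in blastema against 94.3 and 93.7 in intact. On 11p, 2 shared sites between 304390795 and 304392456 ranked at a mean of 35.0 and 18.9 in blastema and 50.9 and 49.1 in intact. Downstream of them, 4 sites lay in both intact lists and in neither blastema list, at distances of 12080, 12516, 27286 and 46130 bp. The widest of these spanned 784 bp, from 304404972 to 304405755. In lists of equal length it was the only one of them left in both intact lists.

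The opposite was seen on 3q, segment 3. There 3 shared sites between 233266689 and 233269689 all ranked higher in blastema, with means of 70.2 and 71.0 in blastema and 61.2 and 64.4 in intact. A further site, from 233269816 to 233269940, 127 bp beyond the last of them, had a peak in both blastema libraries and in neither intact library. The nearest peaks of intact 1 and intact 2 lay 150 and 127 bp from it. It was therefore not a separate site when gaps of up to 500 bp were joined. On 5p, segment 1, 4 shared sites between 229178827 and 229190724 had mean ranks of 45.2 and 56.9 in blastema and 41.6 and 33.8 in intact, and all 4 differences were positive. With lists of equal length the 11 sites on 5q, the 3 on 4p, the 4 on 6q, the 3 on 3q and the 4 on 5p all kept the sign of their difference. The limit left 155 shared sites of 167, and these groups were picked with their values in view. Their signs could therefore hardly change, and this is no test of list length.

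**Figure D3:**
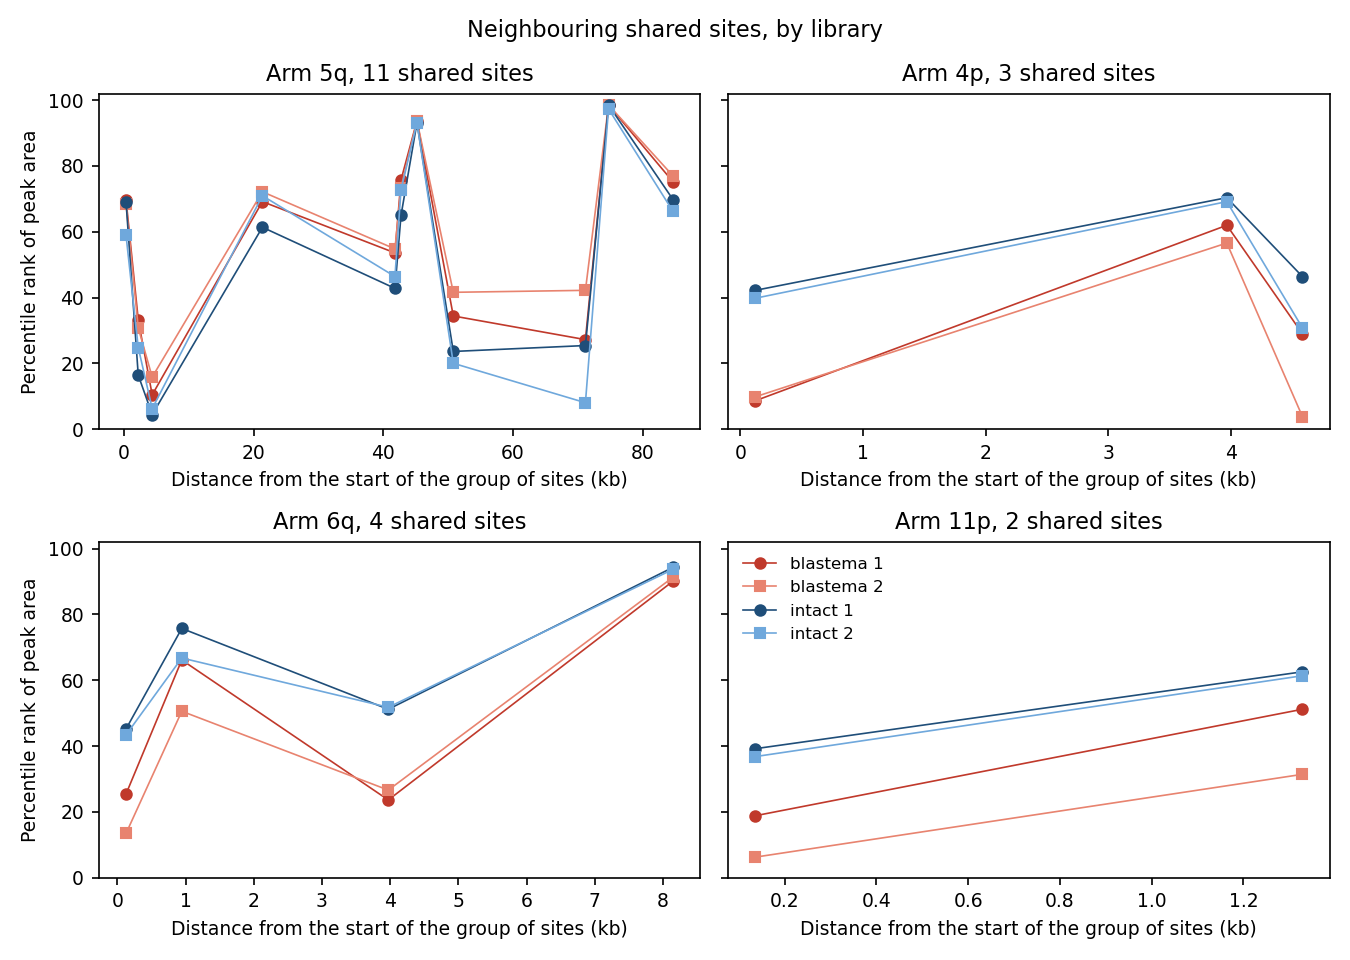
Percentile rank of peak area (vertical axis) at neighbouring shared sites on 5q, 4p, 6q and 11p, against distance in kb from the start of each group of sites, with 1 line per library joining its sites. On 4p, 6q and 11p the blastema lines (red) run below the intact lines (blue), and on 5q they run above them at 8 of 11 sites.

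Peak widths depended on list length. The median width was 346.5 and 343 bp in the blastema lists and 305 and 209 bp in the intact lists, so both blastema lists had wider peaks. In log2 the group difference was 0.45 (2-sided exact permutation test, p = 0.333, the smallest possible), less than the gap of 0.55 between the intact replicates. It was 0.18 without intact 2 and 0.72 without intact 1. Peaks under 150 bp made up 21.8% and 23.6% of the blastema lists and 19.0% and 39.1% of the intact lists. With each list limited to its 248 strongest peaks the order turned round. Median width was then 346.5 and 352.5 bp in blastema and 370.5 and 369.5 bp in intact, a log2 difference of −0.082 (exact p = 0.333), larger than either gap between replicates (0.025 and 0.0039).

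In these equal lists, narrow peaks were more numerous in blastema. Peaks under 150 bp numbered 54 and 51 of 248 in the blastema lists and 20 and 29 of 248 in the intact lists, and the groups did not overlap. The last peak kept had an area of 20.4 and 24.6 in the blastema lists and 50.9 and 57.8 in the intact lists. The first peak left out had an area of 24.5 in blastema 2, 46.2 in intact 1 and 57.6 in intact 2, while blastema 1 lost none. The 57 and 235 peaks left out of the intact lists had median widths of 101 and 100 bp. The limit therefore removed narrow peaks from the intact lists and hardly touched the blastema lists. Peaks over 1000 bp numbered 34 and 30 in blastema and 33 and 31 in intact in both versions of the lists.

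**Figure D4:**
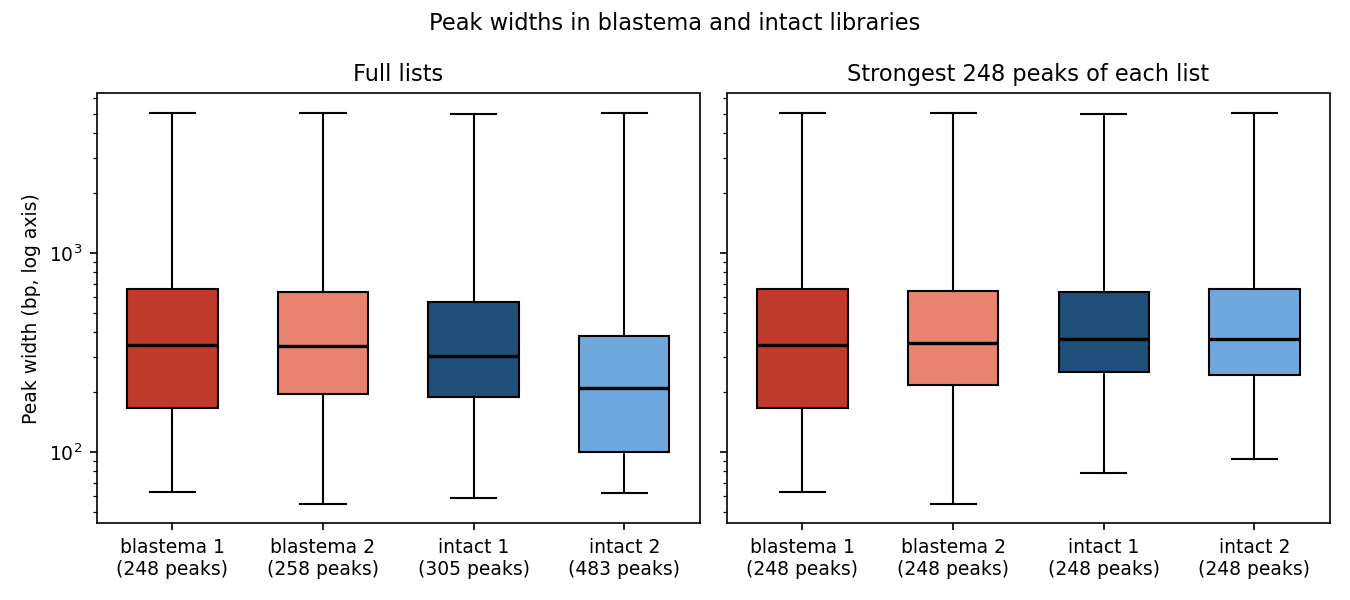
Peak width in bp (log axis) in each library, for full lists (left) and for the 248 strongest peaks of each list (right), with boxes from the first to the third quartile, a line at the median and whiskers to the extremes. Blastema medians (red) lie above the intact medians (blue) in the full lists and below them in the equal lists.

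At the shared sites, widths showed no common shift toward either group. The median log2 ratio of width over the 167 sites was 0.0051, a signed value in which wider and narrower sites cancel. As deposited, 44 sites (26.3%) were wider in both blastema libraries and 45 (26.9%) narrower in both. After each library was centred on its median, 28 (16.8%) were wider and 39 (23.4%) narrower. None passed the adjusted threshold (limma on centred log2 widths, Benjamini-Hochberg, 0% called, lowest adjusted p 0.228), and 14 (8.38%) had an unadjusted p under 0.05, 6 wider and 8 narrower. The unadjusted number was 25 of 184 shared sites without blastema 1 and 22 of 175 without intact 2. Summits lay within 50 bp of each other at 74.3% of shared sites between the blastema replicates and at 72.5% between the intact replicates. Between groups the share was 67.1% to 71.9%, and at the remaining sites they lay further apart. The median distance between the summits of 2 libraries at a shared site was 12 bp between the blastema replicates and 10 bp between the intact replicates, and 10 to 16 bp between groups.

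Widths followed ranks, and area contains width. Among the 98 sites whose groups did not overlap in rank, the width difference had the sign of the rank difference at 86. The 13q site from 20785959 to 20786434 named above was 476 and 415 bp wide in blastema and 338 and 94 bp in intact, the largest centred log2 difference toward blastema (1.29 ± 0.69 SE, limma adjusted p = 0.728). The site on 5q from 58673293 to 58673934 was 442 and 642 bp wide in blastema and 410 and 133 bp in intact. The 2p site of segment 2 measured 337 and 347 bp in blastema, against 111 and 244 bp in intact. In all 3 the intact replicates lay far apart.

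On the narrow side, a site on 1q, segment 0, from 127286729 to 127287013 covered 151 and 72 bp in blastema and 267 and 285 bp in intact (centred log2 difference −1.43 ± 0.44 SE, adjusted p = 0.446). A 6p site in segment 0 from 43252304 to 43252656 covered 212 and 176 bp in blastema, against 329 and 353 bp in intact. In both blastema lists it was broken into 2 peaks, and in both intact lists it was a single peak. When the widest peak of a site was taken in place of the sum, 6 sites passed the adjusted threshold, and both of these were among them (limma adjusted p = 0.027 each). On scaffold C0123164, a site from 2859 to 3141 was 242 and 72 bp wide in blastema and 283 and 247 bp in intact.

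Chromosome arms were compared by the share of each list's peaks. Peaks fell on 27 arms and on unplaced scaffolds. Of these 28 classes, 6 (21.4%) had a higher share in both blastema lists and 7 (25%) a lower share in both. With lists of equal length these numbers were 3 (10.7%) and 2 (7.14%). The share of peaks that would have to change arm to turn one list's profile into another's was 9.77% between the blastema lists and 18.0% between the intact lists, and averaged 16.6% over the 4 pairs between groups. In equal lists it was 10.1% and 12.5% for the replicates and 11.3% to 12.9% between groups. The arm profiles of the groups therefore differed by about as much as those of replicates, and between the pair of intact lists by more than between some pairs of groups.

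Arm 13q had the largest difference. In blastema 1 it held 20 of 248 peaks, or 8.06% (5.28 to 12.1, Wilson 95% CI). In blastema 2 it held 24 of 258, or 9.30% (6.33 to 13.5). In the intact lists it held 6.23% (19 of 305, 4.02 to 9.52) and 5.18% (25 of 483, 3.53 to 7.53). The groups do not overlap, while the intervals do. In equal lists the numbers were 20 and 22 peaks in blastema and 15 and 17 in intact. By covered DNA, 13q held 9.99% and 10.7% in blastema and 8.06% and 7.21% in intact.

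Among arms with a higher mean share in blastema, 5q and 2p followed, with mean differences of 1.93 and 1.42 percentage points. On 5q the groups overlapped, at 8.87% and 11.2% in blastema and 9.84% and 6.42% in intact. By covered DNA they did not, at 13.5% and 14.0% in blastema and 12.1% and 9.85% in intact. On 2p they did not, at 4.44% and 4.26% in blastema and 2.95% and 2.90% in intact, with 11 and 11 peaks in blastema against 6 and 6 in intact in equal lists. By covered DNA the 2p shares overlapped.

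The 3 arms with the largest difference toward intact were 10p, 9q and 7p. Arm 10p held 0 and 1 peak in blastema and 3 and 19 in intact, a mean difference of −2.26 percentage points. The count of 0 in blastema 1 allows a share of up to 1.21% by the limit of 3 counts of 248, and the Wilson upper bound is 1.53%. Arm 9q held 4 and 6 peaks in blastema and 11 and 20 in intact, and 7p held 2 and 0 against 5 and 14. In equal lists the intact peaks numbered 2 and 4 on 10p, 6 and 7 on 9q and 2 and 3 on 7p, so the differences shrank to −1.01, −0.60 and −0.60 points.

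**Figure D5:**
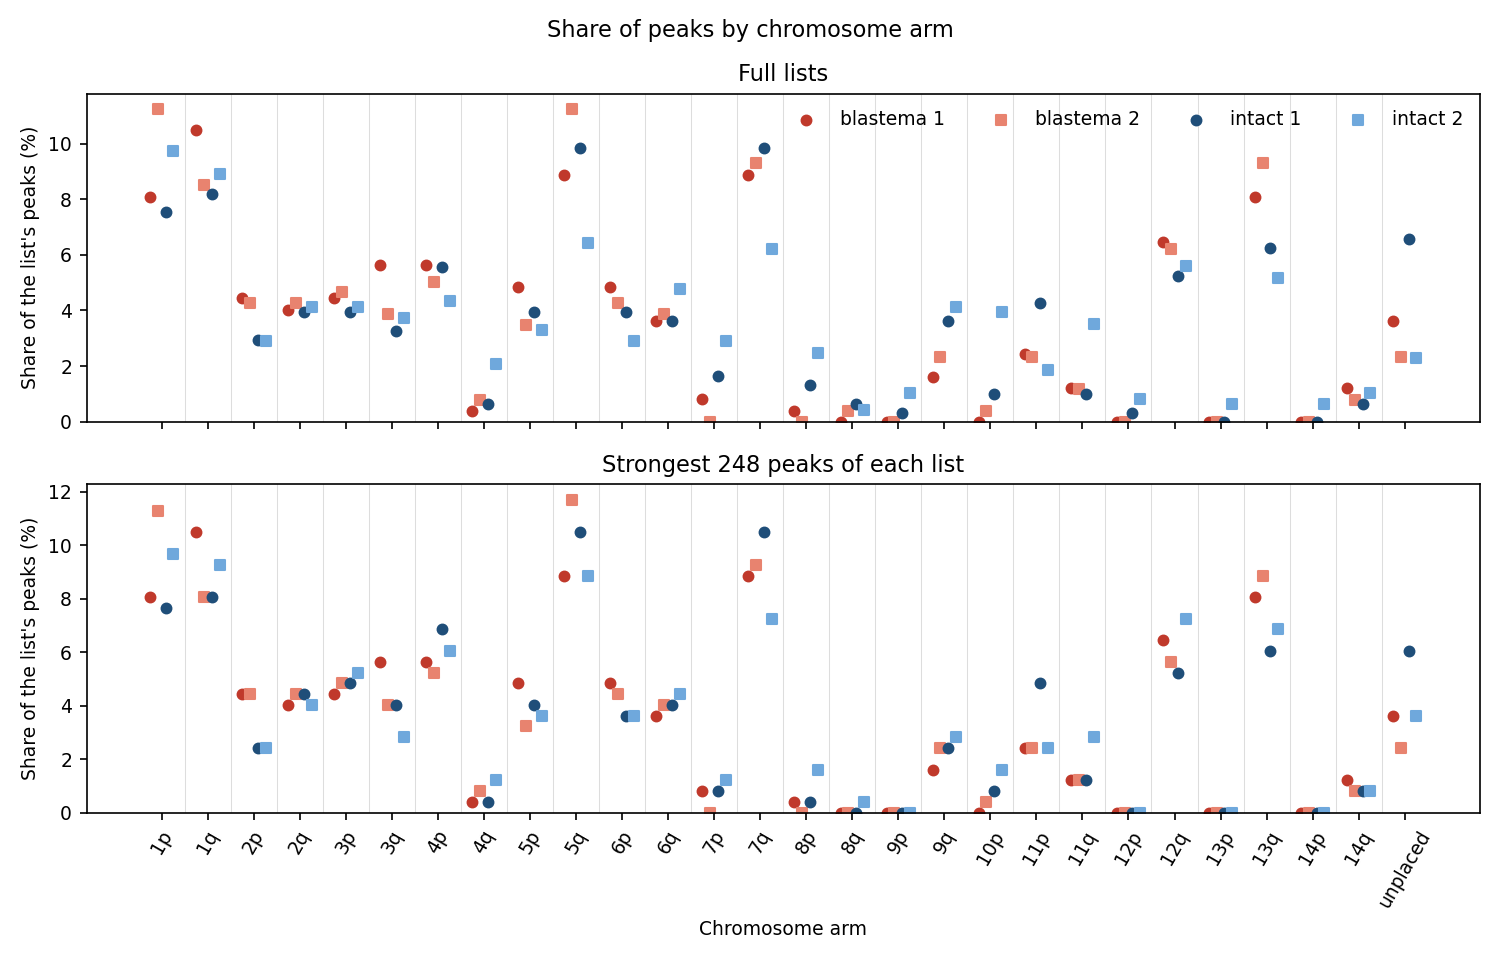
Share of each list's peaks (percent, vertical axis) on each chromosome arm and on unplaced scaffolds, for full lists (top) and the 248 strongest peaks of each list (bottom), with 1 point per library. Both blastema libraries (red) lie above both intact libraries (blue) on 13q, 2p and 6p in both panels, and on 10p the intact shares lie closer to blastema in the lower panel.

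Rank differences were also uneven between arms. On 5q, 11 of the 16 shared sites ranked higher in both blastema libraries and none ranked lower in both, with a median difference of 7.9 points. That is against 32.3% higher and 26.3% lower over all sites and a median of 0.60 points, but 11 of the 16 lie in the single 85.2 kb stretch described above. On 13q, 11 of 15 shared sites ranked higher in both blastema libraries and 2 lower, with a median of 4.5 points. The 13q sites were clustered too. A stretch of 9.56 kb from 55747930 held 3 of them, one of 6.34 kb from 57502373 held 3, and others lay between 20670004 and 20790967. On 12q the balance was the other way, with 1 of 12 higher and 6 lower. All 5 shared sites on unplaced scaffolds had a negative difference, 4 of them without overlap, and their median was −16.8 points. These arms were picked after their values had been seen.

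Few sites had a peak in both lists of one group and neither list of the other. On the blastema side there were 6 such sites (1.05% of 574), with a median width of 248 bp and list ranks from 133 to 238. Sites in only 1 blastema and 1 intact list numbered 4, 7, 4 and 4 for the possible pairs. The 6 blastema sites thus lie within the range of these mixed pairs. The clearest of the 6 lay on 5q, segment 2, from 348893941 to 348894200. Its peak was 254 bp wide in both blastema libraries and ranked 138 and 136 in their lists. The next was on 13q, from 448164231 to 448164784, with widths of 434 and 554 bp and list ranks of 144 and 140. On 13q from 55581222 to 55581868 the replicates differed, with 352 and 647 bp and list ranks of 207 and 133.

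The other 3 sites had list ranks from 175 to 238. The 3q site of segment 3 described above was 125 and 100 bp wide, with list ranks of 175 and 204. On 6p, segment 2, from 217193020 to 217193235, list ranks were 225 and 194, and on 3q, segment 0, from 27486606 to 27486841, they were 238 and 217. An intact peak lay 785 bp from the last of these, in intact 1.

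In both intact lists and neither blastema list there were 25 sites (4.36% of 574), with a median width of 239 bp and list ranks from 126 to 431. The strongest, on 8p, segment 1, from 187175883 to 187176299, was 371 and 353 bp wide and ranked 126 and 146 in the intact lists. Second was 9q, segment 2, from 305255570 to 305255971, with list ranks of 149 and 152, where a blastema 2 peak lay 408 bp away. The third was the 784 bp site on 11p named above, with list ranks of 154 and 190. On 7q, segment 2, a site from 355025474 to 355025736 ranked 184 and 204, and on 10p, segment 0, one from 162137645 to 162137818 ranked 235 and 164. Of the 25 sites, 8 lay within 20 kb of a shared site.

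The excess of intact sites went with list length. With the 248 strongest peaks of each list there were 12 blastema and 8 intact sites. Of these 12, 6 overlapped a weaker peak of a full intact list, 2 of them in both. None of the 8 intact sites overlapped a peak of a full blastema list, but only 0 and 10 blastema peaks had been left out. Every one of the 6 blastema sites of the full lists had a peak in a systemically activated library, 3 of them in both. Of the 25 intact sites, 13 had one, 7 of them in both. The 2 sets are unlike in strength, since the intact sites ran to list rank 431 and the blastema sites to 238. The share of all 574 sites with a systemically activated peak is not given here. In lists of equal length all 12 blastema sites had such a peak, 7 of them in both libraries. So did 7 of the 8 intact sites, 5 of them in both. The systemically activated libraries had the longest lists of the series.

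Systemically activated limbs were set beside both groups at the shared sites. A peak in both of their libraries was present at 156 of the 167 shared sites, and ranks were taken again over these 156. Sites were joined without these libraries. A systemically activated peak that reached several sites was therefore counted in full at each, which could not happen in the blastema and intact libraries. At the 51 sites that had ranked higher in blastema, the systemically activated mean was nearer to blastema at 27 and nearer to intact at 24. At the 40 sites that had ranked lower in blastema, it was nearer to each group at 20. Loci differed from one another. The 3 sites on 4p averaged 28.3 and 31.9 in the systemically activated libraries, close to 30.4 and 20.0 in blastema, with 49.7 and 42.8 in intact. The 4 sites on 6q averaged 51.0 and 44.9 in the systemically activated libraries, 48.6 and 42.1 in blastema and 64.3 and 61.4 in intact. On 5q the 11 sites averaged 53.4 and 54.6 in the systemically activated libraries, between 55.9 and 58.2 in blastema and 49.3 and 48.9 in intact. On 3q the 3 sites averaged 85.8 and 86.0 in the systemically activated libraries, above 68.1 and 68.9 in blastema and 58.7 and 61.9 in intact. At the further site 127 bp beyond them, the peak of systemically activated 5 had list rank 15. Whether 1 strong peak was counted at several of the 3q sites was not examined. The 5q site from 20426970 to 20427870 stood apart, with 9.94 and 24.7 in the systemically activated libraries, 56.1 and 59.3 in blastema and 35.6 and 28.5 in intact. These differences from the systemically activated libraries were not tested.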

How the data were processed

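The authors deposited 1 list of peaks per library. Bowtie2 2.3.2 and Genrich 0.5 (also written 0.5.0) are named in the submitters' processing notes, without settings. The build, the Tn5 shift, duplicate handling and filters are not given in the sources used here. The deposited signal (column 7) was read as a peak's area and is scaled within a library, so it was used only to rank peaks. The deposited score (column 5) was the area divided by width times 1000, rounded and capped at 1000, and was not used further. The deposited −log10 q of the summit (column 9) served to filter peaks in 2 alternatives, and −log10 p was not used.

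Peaks of the 4 lists that overlapped by at least 1 bp were joined into sites, and areas and widths of several peaks of a list at a site were summed. Normal scores of the ranks and log2 widths centred on the library median were fitted with limma 3.58.1 in R 4.3.3 over all shared sites, blastema minus intact, with Benjamini-Hochberg adjustment and a threshold of 0.05. The fit was also run on simulated data with independent noise at each site, whereas neighbouring sites are not independent here. The outcome of that run is not given. Single values per list were compared by exact permutation. Everything else was computed with Python 3.11.15, pandas 2.3.3 and scipy 1.17.1. Named sites were the 5 strongest shared sites, the 5 with the largest rank difference and the 3 with the largest width difference in each direction among those whose groups did not overlap, all 6 blastema sites, the 5 strongest intact sites, and the 3 arms with the largest difference in share in each direction. Further sites, groups of sites and arms were picked with their values in view. The comparison, the sites and the alternatives were chosen with earlier results of these data known. The labels name no batch.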

Additional observations from a re-analysis of the deposited data

How the results depend on the processing

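In lists of equal length (248 peaks), the median width difference turned to −0.082 on the log2 scale, and the sites separating the groups numbered 20, with 12 blastema and 8 intact sites, which turned their balance. Their total moved from 31 to 11 with a −log10 q of at least 3, to 12 with a −log10 q of at least 5, and to 66 without blastema 1, 59 without blastema 2, 263 without intact 1 and 97 without intact 2, since a single list then stood for a group. With the q filters the intact sites stayed the more numerous, at 7 against 4 blastema sites and at 10 against 2. Without 1 library, log2 peak number differed by −0.93 to −0.27 and log2 median width by 0.18 to 0.72. The excess of arm distance between groups over replicates, 2.77 percentage points, ran from −1.71 (without blastema 1) to 10.3 (without intact 1). No site passed the adjusted threshold for rank under any of the alternatives run. For width, 6 sites passed with the widest peak of a site and 3 with a −log10 q of at least 5, among 52 sites. With log2 area centred on the list median in place of ranks, the median difference over all shared sites was 0.24. The causes were not tested.

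Blastema and intact replicates share the numbers 1 and 2, and the labels do not say that a number marks a shared animal or day. The correlation of same-numbered deviations was 0.068 for ranks and 0.021 for widths. With the replicate number as a block, log2 peak number differed by −0.60 and log2 median width by 0.45 (exact sign changes, p = 0.5, the smallest possible), and 0 sites passed for rank or width, with 34 and 16 at an unadjusted p under 0.05 by limma. The 10 sites named for rank and the 6 named for width kept the sign of their difference under the alternatives in which they could be fitted. They had been picked for large differences among sites whose groups did not overlap. Leaving out a library or adding the block could therefore hardly change a sign, and the kept signs are no test. Sizes did move. At the scaffold site named for width, the centred log2 difference of −1.03 became −0.11 without blastema 2 and −1.87 without blastema 1. With a −log10 q of at least 3, most of the sites named for rank and all of those named for width could not be fitted. With a −log10 q of at least 5, no named site could be fitted. Some sites of both sets also dropped out in lists of equal length. Under these stricter settings the sign is thus unknown at the sites that were lost. The strongest sites and the separating sites were not followed one by one. Depth is unknown, and the number of libraries limits every test.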
